A study of Homo sapiens with 12 samples.

Results

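Cells of the human colorectal carcinoma line HCT116 in which SPARCLE, a long non-coding RNA, had been knocked out (KO) were compared with wild-type cells (WT) of the same line, both kept in regular medium for 48 h without doxorubicin. The comparison takes the 2 KO and the 2 WT libraries of regular medium and the autosomal genes of the deposited table. These were 16036 of 16676 genes listed, and 14672 of them passed the filter on low values among the 15256 genes tested on all chromosomes; 1364 autosomal genes did not pass. Of the 14672 genes 10 were called, 4 higher and 6 lower in KO cells.

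The series holds 12 libraries of total RNA, sequenced strand-specifically, in 6 groups of 2 biological replicates named a and b. The other groups are cells that over-express SPARCLE (OE) in regular medium, and KO, OE and WT cells that were given 1 µM doxorubicin, a DNA-damaging anthracycline drug, for 48 h. All were grown in the same serum-supplemented medium. The labels name no clone for the KO or OE cells, so p-values measure the spread between these libraries and not between independently made lines. Nor do they give the way in which the gene was removed or added.

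SPARCLE is listed by the RefSeq table as MIR34BHG, the host gene of the microRNA miR-34b, on chromosome 11, 111510602 to 111513888 (GRCh38.p14). The miR-34 family is induced by p53 after DNA damage and represses mRNAs of the cell cycle and of survival. The title of the series places SPARCLE downstream of p53 and upstream of PARP-1 cleavage in apoptosis. Secreted WNT ligands act on frizzled receptors and, in the canonical branch, through β-catenin, a pathway that is active in most colon carcinomas. Cyclic AMP is made by adenylate cyclases below receptors such as the serotonin receptor HTR7, activates protein kinase A and is broken down by phosphodiesterases.

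Of the family, miR-34b-5p and miR-34a-5p are shown from the RefSeq table of GRCh38.p14, since the SPARCLE gene contains the first. Other members of the family were not taken up here. Capitals mark the seed, bases 2 to 8, which pairs with targets. miR-34b-5p comes from chr11:111512950-111512972 (plus strand) and miR-34a-5p from chr1:9151735-9151756 (minus strand).
hsa-miR-34b-5p: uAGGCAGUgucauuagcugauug
hsa-miR-34a-5p: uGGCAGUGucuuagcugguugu
The seed AGGCAGU of miR-34b-5p and the seed GGCAGUG of miR-34a-5p share their letters with an offset of 1 base. Levels of the mature microRNAs were not analysed here.

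Reads on listed genes, as recovered from the deposited values, numbered 15624120 and 16535393 in KO libraries and 18570480 and 12951603 in WT libraries. Correlations of log2(TPM + 1) across genes were 0.969 between both KO libraries and 0.976 between both WT libraries, while KO replicate b and WT replicate a correlated at 0.982; genes are not independent replicates. TPM is the read count per gene length, scaled to a total that is the same in every library. The median autosomal gene of KO replicate a stood 0.27 log2 units above its mean over the 12 libraries and that of KO replicate b at 0.00, against -0.22 in WT replicate a and -0.03 in WT replicate b. The median difference of all autosomal genes tested, KO minus WT, was 0.20 log2 units. The epithelial marker EPCAM was present in each library, at 126 and 163 TPM in KO libraries and at 152 and 157 TPM in WT libraries. Levels varied widely across its list of epithelial markers. KRT19 had 1002 and 742 TPM in KO libraries and 421 and 755 TPM in WT libraries. CDX2 had 2.91 and 1.39 TPM in KO libraries and 1.17 and 1.69 TPM in WT libraries, and VIL1 did not pass the filter on low values.

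In regular medium SPARCLE itself had 0 reads in both KO libraries, 384 and 622 reads in the OE libraries and 0 reads in both WT libraries. A count of 3 reads, the limit that a count of 0 allows, equals 0.185 and 0.174 TPM in the KO libraries and 0.141 and 0.211 TPM in the WT libraries; such limits cover counting error only. Its loss in KO cells was therefore not detectable at this depth, and the comparison sets 2 kinds of cells side by side in neither of which the RNA was detected. With doxorubicin the KO libraries had 4 and 1 reads and the WT libraries 0 and 3. The exon length used for SPARCLE, 1645 bases, was found by search.

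The first question was which autosomal genes differ between KO and WT cells in regular medium. In KO cells 6 genes were lower than in WT cells, namely WNT16, PRKACB, PODXL2, HTR7, ZNF350 and PDE4B. Another 4 were higher, namely SYTL2, SLPI, FXYD3 and DPPA2. In each of the 10, both KO libraries lay on one side of both WT libraries. A gene was called when its adjusted p-value from limma, a linear model with moderated variances, was under 0.05 after Benjamini-Hochberg adjustment over all 15256 genes tested. The calls are 0.0682% of the autosomal genes tested, 0.0273% higher and 0.0409% lower. Without adjustment, p was under 0.05 for 883 higher (6.02%) and 159 lower genes (1.08%). Libraries did not overlap between KO and WT for 5734 genes (39.1%), 4945 of them higher (33.7%) and 789 lower (5.38%) in KO cells, so a lack of overlap was common. All differences below are in log2 units of TPM + 1, KO minus WT, with limma's standard error (SE); this scale understates the change of genes under about 1 TPM.

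**Figure D1:**
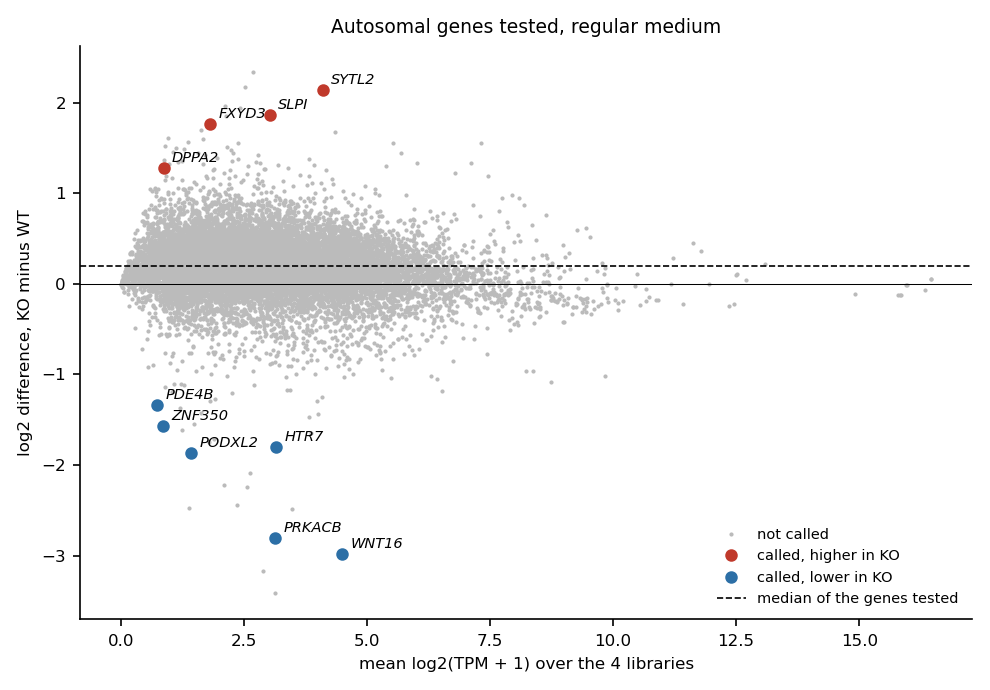
Log2 difference of each autosomal gene tested (vertical axis, KO minus WT in regular medium) against its mean log2(TPM + 1) over the 4 libraries (horizontal axis); grey points are genes not called, red and blue points the 4 higher and 6 lower genes called, and the dashed line is the median of 0.20. The called genes lie between -2.99 and 2.14, and most uncalled genes sit slightly above 0.

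The split of the calls changed with the settings. A pseudocount of 0.1 called 13 higher and 6 lower genes, no filter on low values 9 and 8, median-ratio scaling 11 higher and 19 lower genes, TPM without small RNA genes 14 and 10, and voom on the recovered reads 4 and 11. The calls also rested on single libraries: of the 10 genes, 0 remained called without WT replicate a, 6 without WT replicate b, 4 without KO replicate a and 3 without KO replicate b, and 1 when only the 4 libraries were fitted.

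WNT16 had the largest called difference. It encodes a secreted WNT ligand and lies on chromosome 7, 121325367 to 121341104, plus strand (hg38, as all gene coordinates from GENCODE v29 below). It stood at 8.56 and 5.69 TPM in KO libraries, from 275 and 194 reads, against 75 and 51.9 TPM in WT libraries, from 3152 and 1463 reads. The mean was 8.90-fold lower in KO cells (7.12 ± 2.03 against 63.4 ± 16.3 TPM, SD, n = 2 each), and both KO libraries were far below both WT libraries. The log2 difference was -2.99 ± 0.35 (SE, limma adjusted p = 0.00372), and the call ended only without WT replicate a (adjusted p = 0.0590).

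No other gene of the WNT lists passed. Of 19 WNT ligands in the list, 12 were in the table and 10 tested, of which 1, WNT16, was lower and 0 were higher; WNT9A, another ligand gene, had 4.22 and 2.96 TPM in KO libraries against 1.47 and 1.63 TPM in WT libraries (0.83 ± 0.43, adjusted p = 0.693). The lists of receptors and inhibitors (19 tested), core components (20 tested) and target genes (17 tested) had 0 calls and medians of 0.22, 0.21 and 0.47, beside 0.20 over all autosomal genes tested. The median of the target genes was 0.09 without KO replicate a and 0.79 without KO replicate b, and their summed level was 922 and 492 TPM in KO libraries against 331 and 597 TPM in WT libraries, so the groups overlapped. The core list had 3 members higher at an unadjusted p under 0.05, against 6.02% of all genes tested. APC, the scaffold of the β-catenin destruction complex, stood at 0.71 ± 0.26, CTNNB1, which encodes β-catenin, at 0.61 ± 0.23, and DVL1, a relay below the frizzled receptors, at 0.75 ± 0.32. Their adjusted p-values were 0.62 to 0.673. CCND1, the cyclin D1 gene and the only target at an unadjusted p under 0.05, had 135 and 99.99 TPM in KO libraries against 59.3 and 99.0 TPM in WT libraries, so the KO libraries lay above both WT libraries, 1 of them only just (0.60 ± 0.27, adjusted p = 0.686).

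Of the 6 lower genes 3 belong to the cyclic AMP pathway. HTR7, a serotonin receptor that raises cyclic AMP (chromosome 10, 90740823 to 90857698, minus strand), had 3.44 and 4.13 TPM in KO libraries, from 106 and 135 reads, against 14.9 and 16.5 TPM in WT libraries, from 600 and 447 reads. It was 4.15-fold lower in KO cells, with a log2 difference of -1.81 ± 0.26 (limma adjusted p = 0.0147). The replicates of each group lay close together.

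PRKACB, the gene of the β catalytic subunit of protein kinase A (chromosome 1, 84078062 to 84238498, plus strand), had 3.41 and 1.52 TPM in KO libraries, from 226 and 107 reads, against 26.5 and 18.9 TPM in WT libraries, from 2297 and 1097 reads. It was 9.19-fold lower in KO cells (-2.81 ± 0.34, limma adjusted p = 0.00372). PRKACA, the gene of the α catalytic subunit, had 7.89 and 8.03 TPM in KO libraries against 6.39 and 6.16 TPM in WT libraries (0.30 ± 0.26, adjusted p = 0.776). Per length, then, PRKACB was above PRKACA in both WT libraries and below it in both KO libraries.

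PDE4B, a phosphodiesterase gene that ends cyclic AMP signals (chromosome 1, 65792514 to 66374579, plus strand), had 0.0375 and 0.0572 TPM in KO libraries, from 3 and 5 reads, against 1.4 and 1.91 TPM in WT libraries, from 156 and 143 reads. The ratio of its reads per library total, KO over WT, was 0.0262 (95% exact binomial interval 0.0112 to 0.0523), and the fitted difference was -1.34 ± 0.21 (limma adjusted p = 0.0257). The KO level rests on 8 reads in all. Over the alternative settings the fitted difference ran from -5.29 to -1.20.

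The remaining genes of the cyclic AMP pathway did not pass. The lists were drawn up with these results known, so the presence of 3 called genes in them is no support. Of 13 receptor and cyclase genes tested 1 was lower and 0 higher, of 18 genes of protein kinase A and its anchoring proteins 1 was lower and 0 higher, and of 10 phosphodiesterase genes 1 was lower and 0 higher. Their medians were 0.22, 0.27 and 0.22. ADRB1, the β1 adrenergic receptor gene, stood at 0.63 ± 0.23 and PDE2A, another phosphodiesterase gene, at 0.76 ± 0.30 (adjusted p = 0.616 and 0.64). Of 14 CREB factors and targets, the transcription arm of the pathway, 0 were called and 0 had an unadjusted p under 0.05. Their median was 0.05, beside 0.20 over all autosomal genes tested, and 12 of the 14 lay under the median of all genes. The clock gene PER1 (-0.59 ± 0.30) and the nuclear receptor gene NR4A2 (-0.53 ± 0.29) had the smallest p-values.

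PODXL2 encodes endoglycan, a sialomucin of the cell surface (chromosome 3, 127629181 to 127672809, plus strand). It had 0.519 and 0.314 TPM in KO libraries, from 11 and 7 reads, against 4.65 and 3.71 TPM in WT libraries, from 131 and 70 reads. The ratio of reads was 0.0878 (95% exact binomial interval 0.0510 to 0.142) and the fitted difference -1.87 ± 0.26 (limma adjusted p = 0.0102).

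ZNF350 encodes a KRAB zinc finger repressor that binds BRCA1 (chromosome 19, 51964343 to 51986856, minus strand). Its KO libraries had 4 and 1 reads, or 0.0937 and 0.0247 TPM, against 134 and 79 reads, or 2.29 and 2.02 TPM, in WT libraries. The ratio of reads was 0.0230 (95% exact binomial interval 0.0074 to 0.0545), the smallest among the 10 genes, and the fitted difference was -1.57 ± 0.19 (limma adjusted p = 0.00372). At these low levels the fitted value depends on the scale, and it ran from -5.50 to -1.51 over the alternative settings for ZNF350 and from -3.58 to -1.74 for PODXL2.

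Among the called genes that were higher in KO cells, SYTL2 had the highest level. It encodes a synaptotagmin-like protein that binds Rab27 on secretory vesicles (chromosome 11, 85694224 to 85811159, minus strand). It had 43.7 and 28.1 TPM in KO libraries, from 4851 and 3310 reads, against 5.26 and 9.73 TPM in WT libraries, from 763 and 947 reads. It was 4.79-fold higher in KO cells (35.9 ± 11 against 7.49 ± 3.16 TPM, SD, n = 2 each), a difference of 2.14 ± 0.35 (limma adjusted p = 0.0369). The replicates of both groups spread widely, but the lowest KO library was still far above the highest WT library.

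SLPI, the gene of a secreted inhibitor of leukocyte elastase made by mucosal epithelia (chromosome 20, 45252239 to 45254564, minus strand), had 13.3 and 16.1 TPM in KO libraries, from 78 and 100 reads, against 2.76 and 3.91 TPM in WT libraries, from 21 and 20 reads. The mean was 4.41-fold higher in KO cells (1.86 ± 0.23, limma adjusted p = 0.00428). FXYD3, the gene of a small membrane protein that regulates the sodium pump (chromosome 19, 35115879 to 35124324, plus strand), had 4.96 and 6.14 TPM in KO libraries, from 163 and 214 reads, against 1.05 and 0.803 TPM in WT libraries, from 45 and 23 reads. Both genes had replicates that lay close together within each kind of cell. FXYD3 was 5.99-fold higher in KO cells (1.76 ± 0.25, limma adjusted p = 0.0147).

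DPPA2, a gene of pluripotent cells and the germ line (chromosome 3, 109293788 to 109316517, minus strand), had 1.7 and 2.02 TPM in KO libraries, from 23 and 29 reads, against 0.179 TPM in each WT library, from 3 and 2 reads. The ratio of reads was 10.2 (95% exact binomial interval 4.10 to 32.7), and the fitted difference was 1.28 ± 0.20 (limma adjusted p = 0.0271). It was near the limit of detection in WT cells, and over the alternative settings the fitted difference ran from 1.18 to 2.95; the call ended in 6 of 11 of them.

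The families of the 4 higher genes held no further call. Of 24 synaptotagmin-like and Rab27 secretion genes tested, 1, SYTL2, was higher and 0 were lower (median 0.22); MYRIP, another Rab27 effector gene, stood at 1.05 ± 0.39 and SYTL3 at 0.40 ± 0.20 (adjusted p = 0.62 and 0.688). Of 19 secreted protease inhibitors tested, 1, SLPI, was higher and 0 were lower (median 0.22). TIMP3, an inhibitor of matrix metalloproteinases, had 13.7 and 17.2 TPM in KO libraries against 8.09 and 4.0 TPM in WT libraries (1.28 ± 0.30, adjusted p = 0.224), and the serpin gene SERPINB1 stood at 0.98 ± 0.25 (adjusted p = 0.303). Of 9 FXYD and sodium pump genes tested, 1, FXYD3, was higher and 0 were lower (median 0.10), and its relative FXYD4 is described below. These lists, too, were drawn up with the called genes known.

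**Figure D2:**
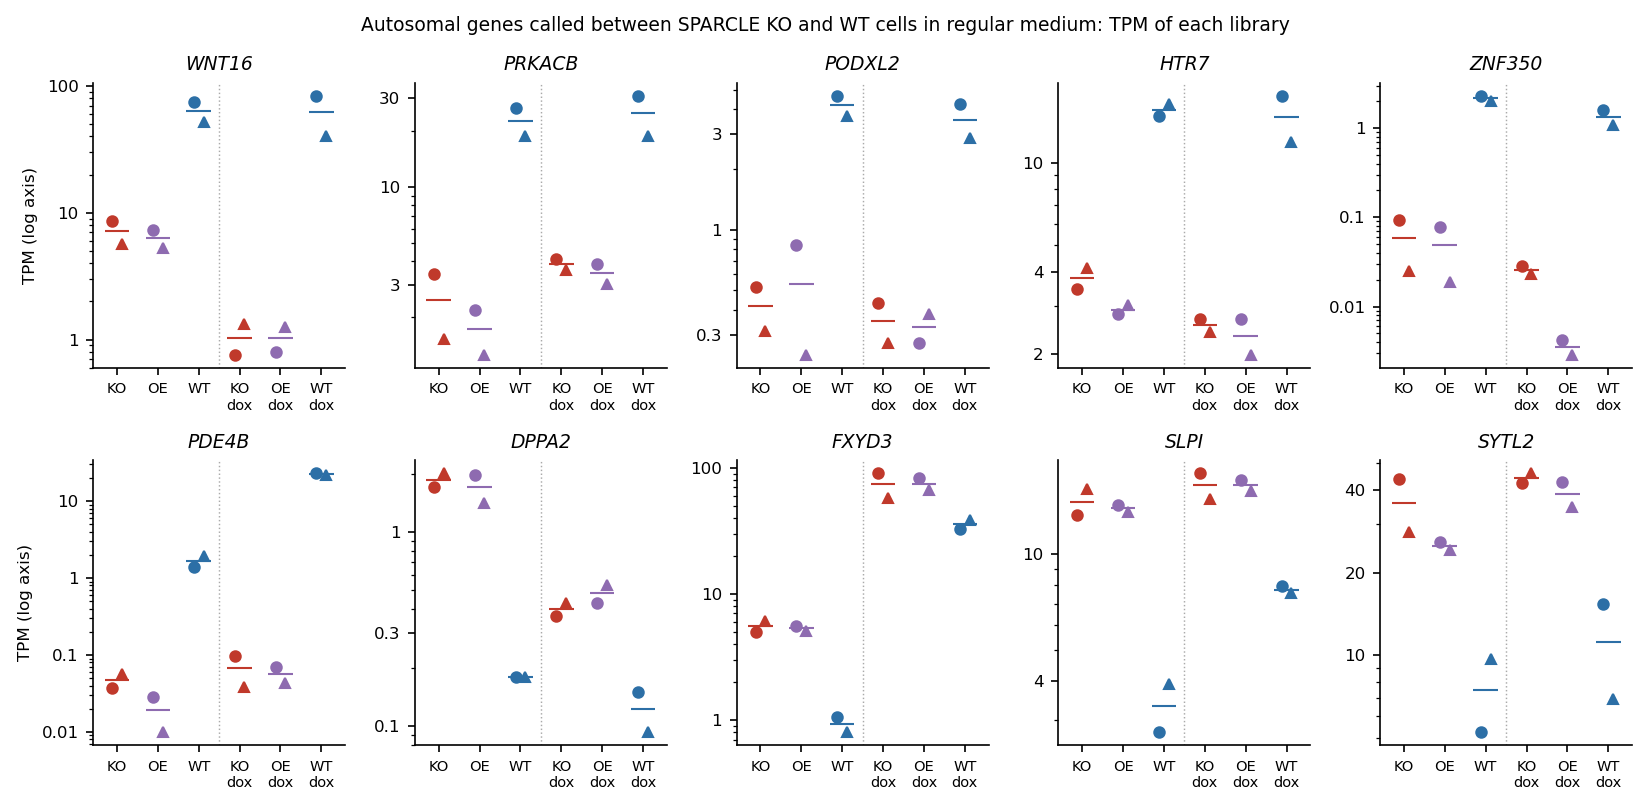
TPM (vertical, log axis) of the 10 called genes in each library of KO, OE and WT cells in regular medium (left of the dotted line) and with doxorubicin (right of it); circles are replicates a, triangles replicates b and bars the means of 2. In each panel the KO libraries do not overlap the WT libraries in either medium, and the OE libraries lie with the KO libraries.

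The doxorubicin libraries, which do not enter the regular-medium means but share their estimate of the spread, were read for the same genes. All 10 genes had the same direction there, KO minus WT, against 60.3% of all autosomal genes tested, and in all 10 the KO libraries did not overlap the WT libraries, against 23.9% of all autosomal genes tested. Of the 10 genes 7 were called again, where 38 autosomal genes (0.259%) were called in all. WNT16 had 0.758 and 1.32 TPM in KO libraries with doxorubicin against 83.5 and 40.7 TPM in WT libraries with doxorubicin (-4.88 ± 0.35, limma adjusted p = 1.8e-05). PRKACB (-2.38 ± 0.34), HTR7 (-2.13 ± 0.26), PODXL2 (-1.74 ± 0.26), ZNF350 (-1.18 ± 0.19) and SYTL2 (1.98 ± 0.35) were the others besides PDE4B. WNT16 and PDE4B kept this call under every alternative run. The other 5 lost it without at least 1 doxorubicin library, PRKACB and HTR7 only without WT replicate a, PODXL2 without 3 of the 4 and ZNF350 without any of the 4. SYTL2 lost it without KO replicate a, KO replicate b or WT replicate b, and with a mean TPM of at least 5 as the filter. Their highest adjusted p-values were 0.0662 (HTR7) to 0.387 (SYTL2).

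Of the 4 higher genes 3 did not pass with doxorubicin. SLPI stood at 0.99 ± 0.23 (adjusted p = 0.147), FXYD3 at 1.01 ± 0.25 (0.218) and DPPA2 at 0.32 ± 0.20 (1). FXYD3 had 90.7 and 57.9 TPM in KO libraries with doxorubicin against 32.8 and 38.5 TPM in WT libraries with doxorubicin, so both kinds of cells were far above their levels in regular medium. Whether the genotype difference itself differed between the media was tested by the interaction, which called PDE4B alone among the autosomal genes tested (0.00682%). With doxorubicin PDE4B had 0.0968 and 0.0379 TPM in KO libraries, from 15 and 7 reads, against 23 and 22.1 TPM in WT libraries, from 3170 and 3399 reads (-4.47 ± 0.21, limma adjusted p = 2.14e-07). For the other 9 genes the interaction had an adjusted p of 1, which does not show that the differences were equal.

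Cells that over-express SPARCLE had levels near those of KO cells at all 10 genes, and both are set against the same WT libraries. Same-lettered KO and OE libraries of regular medium also shared deviations from their group means (correlation 0.50 across genes). The source of these shared deviations was not tested. WNT16 had 8.56 and 5.69 TPM in KO, 7.29 and 5.26 TPM in OE and 75 and 51.9 TPM in WT libraries of regular medium. PRKACB had 3.41 and 1.52 TPM in KO, 2.20 and 1.26 TPM in OE and 26.5 and 18.9 TPM in WT libraries. SYTL2 had 43.7 and 28.1 TPM in KO, 25.7 and 24.2 TPM in OE and 5.26 and 9.73 TPM in WT libraries. The OE libraries thus lay on the KO side of the WT libraries in each of these genes, although they alone held SPARCLE reads. KO minus OE differences of the 10 ranged from -0.09 (PODXL2) to 0.48 (SYTL2), with SE of 0.19 to 0.35 and adjusted p-values of 0.784 to 0.983. Between KO and OE cells 1 autosomal gene (0.00682%) was called, SPARCLE itself (-4.79 ± 0.22, limma adjusted p = 1.68e-07).

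The promoters of the called genes are shown because genes that move together can be compared at their starts. Of the 10 genes 8 matched an entry of the RefSeq promoter table of GRCh38.p14, which holds 250 bases before and 50 bases after each start; SLPI and SYTL2 are named only. The starts of 6 are printed, 5′ to 3′ on the strand of the gene, with each CG dinucleotide in capitals: WNT16 (chr7:121328750-121329049, plus), ZNF350 (chr19:51986791-51987090, minus), HTR7 (chr10:90857990-90858289, minus), PRKACB (chr1:84077829-84078128, plus), FXYD3 (chr19:35117750-35118049, plus) and DPPA2 (chr3:109316468-109316767, minus). For PRKACB, with 5 starts in the table, and PDE4B, with 6, the most upstream one was taken, so their counts below hold for that start.
WNT16: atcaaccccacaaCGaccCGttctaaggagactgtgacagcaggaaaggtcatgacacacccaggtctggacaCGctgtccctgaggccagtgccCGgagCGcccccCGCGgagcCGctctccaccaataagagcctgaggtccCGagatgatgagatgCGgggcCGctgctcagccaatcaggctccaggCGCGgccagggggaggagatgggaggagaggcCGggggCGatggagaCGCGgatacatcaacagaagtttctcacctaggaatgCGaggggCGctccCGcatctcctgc
ZNF350: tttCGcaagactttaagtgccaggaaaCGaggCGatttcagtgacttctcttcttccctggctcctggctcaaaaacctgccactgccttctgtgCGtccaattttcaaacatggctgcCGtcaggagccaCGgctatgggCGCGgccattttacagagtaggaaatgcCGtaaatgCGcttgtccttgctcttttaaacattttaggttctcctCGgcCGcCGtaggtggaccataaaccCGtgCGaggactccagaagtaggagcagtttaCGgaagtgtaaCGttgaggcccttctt
HTR7: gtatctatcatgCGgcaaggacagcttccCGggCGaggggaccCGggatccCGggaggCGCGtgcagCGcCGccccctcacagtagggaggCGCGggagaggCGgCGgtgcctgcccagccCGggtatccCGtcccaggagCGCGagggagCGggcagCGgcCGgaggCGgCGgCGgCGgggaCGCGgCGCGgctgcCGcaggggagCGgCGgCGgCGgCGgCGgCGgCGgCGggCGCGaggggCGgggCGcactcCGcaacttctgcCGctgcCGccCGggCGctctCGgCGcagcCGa
PRKACB: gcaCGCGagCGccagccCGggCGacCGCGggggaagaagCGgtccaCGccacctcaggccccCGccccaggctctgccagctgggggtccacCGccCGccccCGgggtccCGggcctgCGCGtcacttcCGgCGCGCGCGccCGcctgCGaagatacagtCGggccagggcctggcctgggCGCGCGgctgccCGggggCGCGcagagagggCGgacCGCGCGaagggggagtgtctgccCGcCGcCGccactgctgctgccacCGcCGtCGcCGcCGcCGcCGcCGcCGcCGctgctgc
FXYD3: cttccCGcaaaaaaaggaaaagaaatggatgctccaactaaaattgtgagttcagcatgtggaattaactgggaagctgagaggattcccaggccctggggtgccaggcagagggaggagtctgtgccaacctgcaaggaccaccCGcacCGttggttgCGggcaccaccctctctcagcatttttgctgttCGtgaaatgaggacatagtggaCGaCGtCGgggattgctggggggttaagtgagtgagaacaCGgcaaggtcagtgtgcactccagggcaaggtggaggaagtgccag
DPPA2: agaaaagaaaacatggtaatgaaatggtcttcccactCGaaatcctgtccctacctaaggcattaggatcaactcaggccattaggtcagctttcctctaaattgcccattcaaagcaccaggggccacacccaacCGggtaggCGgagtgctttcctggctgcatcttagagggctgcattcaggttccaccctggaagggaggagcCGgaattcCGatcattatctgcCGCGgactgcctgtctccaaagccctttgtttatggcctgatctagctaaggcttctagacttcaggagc
The promoters of the genes lower in KO cells held 20 (WNT16), 17 (ZNF350), 50 (HTR7), 47 (PRKACB), 57 (PODXL2) and 19 (PDE4B) CG dinucleotides. Those of the genes higher in KO cells held 9 (FXYD3) and 7 (DPPA2). Over the 35116 promoters of the table, which are not limited to the genes tested, the median was 14 and the quartiles were 4 and 28. The lower genes stood above the median and the higher genes with an entry below it, but WNT16, ZNF350, PDE4B, FXYD3 and DPPA2 lay within the quartiles. The windows of WNT16 and FXYD3 lie inside the gene bodies given above, and that of HTR7 lies wholly upstream of its gene body. The counts of these windows therefore do not describe the gene starts given there. The letters TGACG, the core of the cyclic AMP response element, were found on either strand in 3 of the 8 (ZNF350, PRKACB and PODXL2) and in 24.6% of all promoters of the table. The whole element, TGACGTCA, was found in 0 of the 8 and in 1.85% of the table. A match is a description of the letters in the window and was not tied to the changes.

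Just outside the threshold stood genes whose libraries did not overlap and whose unadjusted p-values were the smallest, 10 in each direction by rule. VCAN, the gene of the matrix proteoglycan versican, was the nearest of them. It had 1.36 and 1.06 TPM in KO libraries against 9.14 and 13.1 TPM in WT libraries (-2.44 ± 0.42, limma adjusted p = 0.0599). NR2F1, a nuclear receptor gene, had 3.19 and 1.12 TPM in KO libraries against 9.36 and 14.5 TPM in WT libraries (-2.09 ± 0.39, adjusted p = 0.0888). CYP24A1, the vitamin D 24-hydroxylase gene, had 2.61 and 0.678 TPM in KO libraries against 14.3 and 31.2 TPM in WT libraries (-3.17 ± 0.72, adjusted p = 0.193). Its SE, the largest of these 20, goes with replicates that spread widely within each kind of cell. The glucose transporter gene SLC2A3 (-1.71 ± 0.39), the adhesion gene NECTIN3 (-1.47 ± 0.36), the ecto-nucleotidase gene NT5E (-1.17 ± 0.32), the snoRNA host SNHG19 (-1.06 ± 0.25), the secreted factor gene FAM3C (-1.01 ± 0.19) and the mitotic genes KIF2C (-1.02 ± 0.27) and CENPA (-0.96 ± 0.26) had adjusted p-values of 0.089 to 0.398.

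Of the 10 on the other side, PURPL, a p53-regulated long non-coding RNA, had 12.4 and 14.6 TPM in KO libraries against 1.27 and 2.59 TPM in WT libraries (2.34 ± 0.43, limma adjusted p = 0.0856). TSPAN1, an epithelial tetraspanin gene, had 6.01 and 7.40 TPM in KO libraries against 1.32 and 2.89 TPM in WT libraries (1.35 ± 0.26, adjusted p = 0.0890). FXYD4, a relative of FXYD3, had 7.75 and 7.41 TPM in KO libraries against 2.08 and 0.579 TPM in WT libraries, the WT values resting on 22 and 4 reads (1.96 ± 0.39, adjusted p = 0.107). S100A4, a calcium-binding protein gene linked to cell motility, was the most abundant, at 218 and 222 TPM in KO libraries against 70.1 and 108 TPM in WT libraries (1.33 ± 0.27, adjusted p = 0.123). The small GTPase gene ARL14, the troponin gene TNNC1, the collagen receptor gene ITGA2, the DNA polymerase µ gene POLM, the epidermal factor gene GRHL3 and the dehydrogenase gene DHRS2 stood between 1.30 and 1.48, with adjusted p-values of 0.116 to 0.16.

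With doxorubicin all 20 of these genes had the same direction, KO minus WT, against 60.3% of all autosomal genes tested. Libraries did not overlap for 18 (23.9% of all genes tested), and 6 were called (0.259% of all genes tested). The 6 were CYP24A1 (-4.36 ± 0.72), SLC2A3 (-2.46 ± 0.39), NT5E (-2.14 ± 0.32), NECTIN3 (-2.07 ± 0.36), FAM3C (-1.37 ± 0.19) and TSPAN1 (1.4 ± 0.26), with limma adjusted p-values of 0.00871 to 0.0398. Each of the 6 lost the call without at least 3 of the 4 doxorubicin libraries, and TSPAN1 without any of them. CYP24A1 also lost it with a pseudocount of 0.1. TSPAN1 also lost it with that pseudocount, a mean TPM of at least 5, median-ratio scaling and TPM without small RNA genes. CYP24A1 had 13.1 and 1.73 TPM in KO libraries with doxorubicin against 123 and 130 TPM in WT libraries with doxorubicin. Of all 38 autosomal genes called with doxorubicin, 15 higher and 23 lower, 38 had the same direction in regular medium, against 60.3% of all autosomal genes tested.

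**Figure D3:**
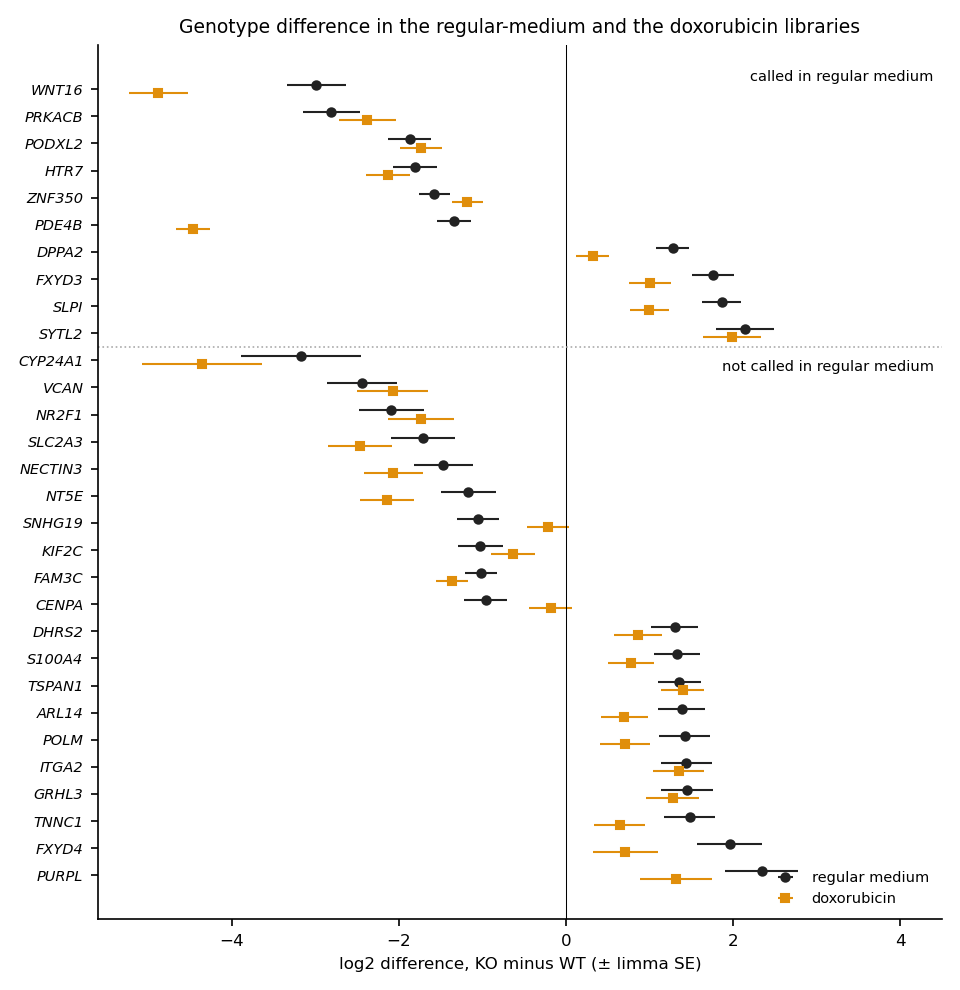
Log2 difference, KO minus WT (horizontal axis, ± limma SE), of the 10 genes called in regular medium and of the 20 genes just outside the threshold, in the regular-medium libraries (black circles) and in the doxorubicin libraries (orange squares). All 30 genes lie on the same side of 0 in both, against 60.3% of all autosomal genes tested. PDE4B stands at -4.47 with doxorubicin, against -1.34 in regular medium.

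The study's own pathway was looked at next. CDKN1A, the p53-induced gene of the cell-cycle inhibitor p21, had 103 and 87.6 TPM in KO libraries against 73.5 and 110 TPM in WT libraries, so the groups overlapped (0.08 ± 0.35, limma adjusted p = 0.96). Its sign turned under 5 of 12 alternatives, and no direction can be given. MDM2, the ubiquitin ligase gene that limits p53, had 28.9 and 29.9 TPM in KO libraries against 21.3 and 23.8 TPM in WT libraries (0.37 ± 0.26, adjusted p = 0.748). PARP1, the ADP-ribosylating enzyme gene of the series title, had 52.2 and 46.7 TPM in KO libraries against 39.8 and 44.0 TPM in WT libraries (0.23 ± 0.22, adjusted p = 0.802), and its sign turned with median-ratio scaling and with voom.

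Of 49 p53 targets tested 0 were called and 0 had an unadjusted p under 0.05, with a list median of 0.09. Of 34 reported miR-34 targets 0 were called, with a median of 0.13. CDK6, a G1 kinase gene and miR-34 target, had 6.37 and 4.67 TPM in KO libraries against 9.82 and 11.9 TPM in WT libraries (-0.87 ± 0.29, limma adjusted p = 0.609), and with doxorubicin it was called at -2.09 ± 0.29 (adjusted p = 0.00857), a call that ended without 3 of the 4 doxorubicin libraries. BIRC5, the survivin gene and a member of 3 of the lists, stood at -0.99 ± 0.32 (adjusted p = 0.555). Of 36 caspase and apoptosis genes 0 were called (median 0.26, beside 0.20 over all genes). Without adjustment p was under 0.05 for 4 higher and 1 lower gene, against 6.02% and 1.08% of all genes tested. BCL2L11, the gene of the death activator BIM, had 10.8 and 11.7 TPM in KO libraries against 6.11 and 6.13 TPM in WT libraries (0.78 ± 0.24, adjusted p = 0.499), and the adaptor gene TRADD stood at 0.89 ± 0.32 (0.616). Of 22 PARP and ADP-ribose genes 0 were called (median 0.21), and ADPRHL2, a hydrolase gene that removes ADP-ribose, stood at 0.71 ± 0.24 (0.609).

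Genes of G2 and M phase had the lowest median among the lists. Of 43 tested 0 passed over all genes, but 43 of 43 lay under the median of all genes, and 24 were lower at an unadjusted p under 0.05, against 1.08% of all genes tested. Both KO libraries lay below both WT libraries in 32 of the 43, against 5.38% of all genes tested. The list median was -0.73, beside 0.20 over all genes. KIF2C, a mitotic kinesin gene, had 12.4 and 18.8 TPM in KO libraries against 30.1 and 34.3 TPM in WT libraries, and CENPA, the centromeric histone gene, had 4.15 and 3.19 TPM in KO libraries against 6.42 and 10.0 TPM in WT libraries. DLGAP5, a spindle gene, had 12.3 and 23.3 TPM in KO libraries against 30.2 and 37.1 TPM in WT libraries.

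KO replicate a was the lowest library for that list. The summed level of the 43 genes was 613 and 1209 TPM in KO replicates a and b, against 1220 and 1434 TPM in WT replicates a and b. The list median was -0.31 without KO replicate a and -1.04 without KO replicate b. The 60 cytosolic ribosomal protein genes had 0 calls and a median of -0.18, with sums of 23647 and 29476 TPM in KO libraries against 31870 and 28353 TPM in WT libraries. KO replicate a was again the lowest, and without it the median was 0.00. Of 40 S phase and replication genes 0 were called, 0 had an unadjusted p under 0.05, and the median was 0.15. The share of cells in each phase and the RNA per cell cannot be told apart in bulk RNA.

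**Figure D4:**
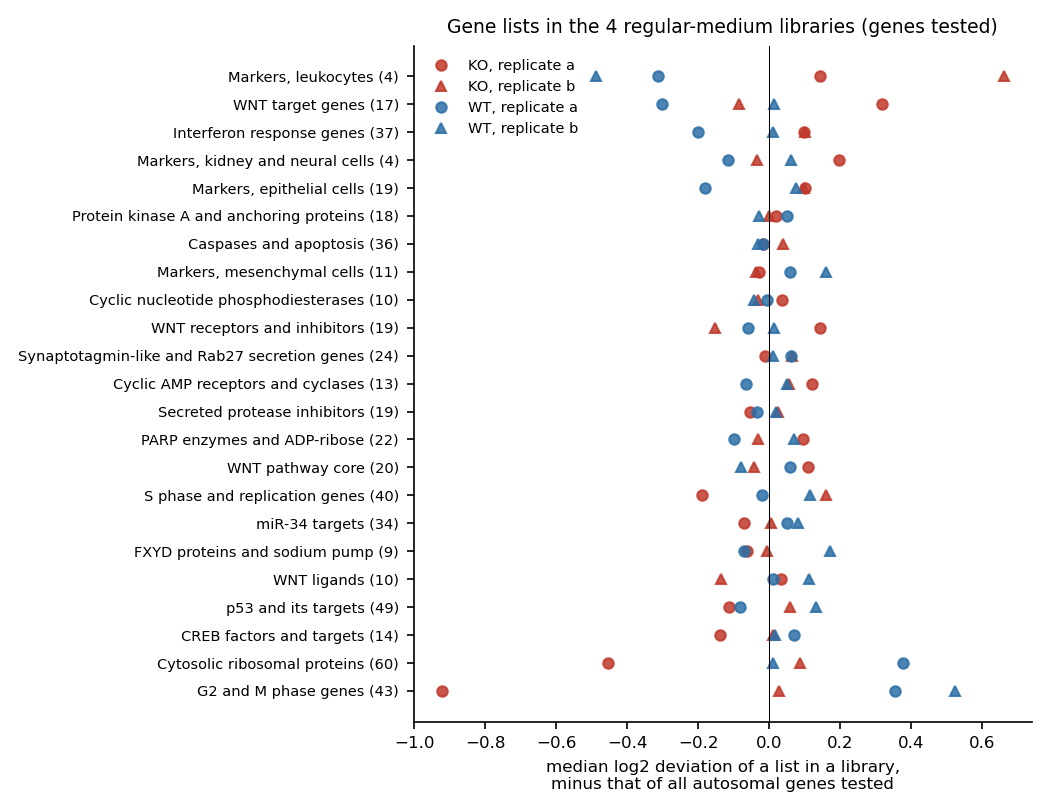
Median deviation of each gene list in each regular-medium library from its mean over the 4 libraries, in log2 units after subtracting the same median of all autosomal genes tested (horizontal axis); the number of genes tested stands beside each list, red marks are KO and blue marks WT libraries. KO replicate a lies at -0.92 for G2 and M phase genes and at -0.45 for ribosomal proteins, away from the other 3 libraries, and most lists lie near 0.

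Interferon response genes had 0 calls among 37 tested and a median of 0.39, beside 0.20 over all autosomal genes tested. At an unadjusted p under 0.05 there were 7 higher and 0 lower, against 6.02% and 1.08% of all genes tested. SAMD9, an antiviral gene, had 7.58 and 4.5 TPM in KO libraries against 1.30 and 3.07 TPM in WT libraries (1.17 ± 0.30, limma adjusted p = 0.311). IFI27 had 7.02 and 12.9 TPM in KO libraries against 1.57 and 1.96 TPM in WT libraries (1.94 ± 0.55, adjusted p = 0.427). IFI44, another interferon-induced gene, stood at 0.89 ± 0.30 (adjusted p = 0.595). With doxorubicin IFI27 (4.47 ± 0.55, adjusted p = 0.00332) and IFI44 (1.78 ± 0.30, 0.0234) were called, as was TIMP3 (1.78 ± 0.30, 0.0236). The call of IFI27 ended without WT replicate a, that of IFI44 without any of the 4 doxorubicin libraries and that of TIMP3 without 3 of them. Median-ratio scaling also ended the calls of IFI44 and TIMP3, and voom and TPM without small RNA genes that of IFI44.

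Of 19 epithelial markers 0 were called and 7 were higher at an unadjusted p under 0.05, against 6.02% of all genes tested. Their median was 0.35, beside 0.20 over all autosomal genes tested. CLDN7, a tight junction gene, had 156 and 235 TPM in KO libraries against 113 and 96.9 TPM in WT libraries (0.87 ± 0.23, limma adjusted p = 0.354), and the keratin gene KRT18 had 429 and 282 TPM in KO libraries against 155 and 200 TPM in WT libraries (0.98 ± 0.28, adjusted p = 0.45). Another keratin gene, KRT7, had the lowest difference of the list, with 0.50 and 0.378 TPM in KO libraries against 0.932 and 3.93 TPM in WT libraries (-1.10 ± 0.64, adjusted p = 0.726). With doxorubicin KRT7 was called at -3.71 ± 0.64 (limma adjusted p = 0.0268). That call ended with a pseudocount of 0.1 and without KO replicate b or either WT replicate. Of 24 mesenchymal markers 11 were tested, with 0 called and a median of 0.23; VIM, the vimentin gene, had 0.594 and 0.633 TPM in KO libraries against 1.46 and 2.04 TPM in WT libraries (-0.76 ± 0.42, adjusted p = 0.71), and TWIST1, a transcription factor gene at the other end of the list, stood at 0.40 ± 0.25 (0.744). Of 23 leukocyte markers 11 were listed and 4 tested, with 0 called and a median of 0.92, beside 0.20 over all genes. At an unadjusted p under 0.05, 4 were higher, against 6.02% of all genes tested. HLA-DRB1, a class II histocompatibility gene, had 3.05 and 4.34 TPM in KO libraries against 1.26 and 1.17 TPM in WT libraries (1.07 ± 0.26, adjusted p = 0.257), and CORO1A, an actin regulator gene, stood at 0.93 ± 0.23 (0.275). The summed level of the 4 was 41.3 and 60.5 TPM in KO libraries against 29.2 and 21.9 TPM in WT libraries. Of the 4 libraries compared, CORO1A reached 1 TPM only in KO libraries (1.88 and 2.42, against 0.640 and 0.644 TPM in WT libraries). So did KRT20 among the epithelial markers, while VIM reached it only in WT libraries. The filter counts all 12 libraries but can favour genes that are high in 1 group. The median and count of the leukocyte list are therefore no support. The other 7 listed, CD8A, ITGAM, CSF1R, HLA-DPA1, CD74, LCP1 and LAPTM5, did not pass the filter; among them CD74 had 0.420 and 0.575 TPM in KO libraries against 0.151 and 0.0778 TPM in WT libraries, while LCP1 had 0.705 and 0.494 TPM in KO libraries against 0.723 and 0.940 TPM in WT libraries. Of the kidney and neural markers 4 of 16 were tested (median 0.36) and of the endothelial markers 1 of 11 (0.15), with 0 called; the part of other cells in the results was not tested.

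Genes beside SPARCLE and beside the called genes were read last, in a window of 1 Mb on each side of the gene body that was applied to the called genes after their values were seen. Around SPARCLE 19 autosomal genes were tested and 0 were called or had an unadjusted p under 0.05. Their differences ran from -0.24 to 0.51, with a median of 0.04, and SIK2, a salt-inducible kinase gene and the nearest at 91.8 kb between starts, stood at -0.04 ± 0.26. Around WNT16 6 genes were tested, and FAM3C, whose start lies 71.0 kb away, had 55.5 and 53.8 TPM in KO libraries against 111 TPM in each WT library. It was 2.04-fold lower in KO cells (-1.01 ± 0.19, limma adjusted p = 0.0890), and it passed with 4 of 12 alternatives. The other 5 genes around WNT16 stood between -0.05 and 0.17.

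Around PRKACB 15 genes were tested, with 0 called and a median of -0.18, beside 0.20 over all genes. At an unadjusted p under 0.05, 3 were lower, against 1.08% of all genes tested. These were SAMD13 (-0.77 ± 0.24), the pseudogene AL359273.1 (-0.79 ± 0.27) and GNG5, a G protein γ subunit gene (-0.72 ± 0.25), with limma adjusted p-values of 0.499 to 0.609. GNG5 had 38.4 and 67.5 TPM in KO libraries against 93.1 and 77.1 TPM in WT libraries. AL359504.2, a long non-coding RNA that starts 0.1 kb from PRKACB on the opposite strand, stood at -0.43 ± 0.30 (limma adjusted p = 0.748). Its gene body, 84076331 to 84077931, does not overlap that of PRKACB. Whether counting used strand is not given in the sources used here. Around ZNF350 38 genes were tested, with 0 called and a median of 0.47, beside 0.20 over all genes. At an unadjusted p under 0.05, 7 were higher, against 6.02% of all genes tested. Around the other 7 called genes the neighbours had 0 calls and medians of -0.04 to 0.34.

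**Figure D5:**
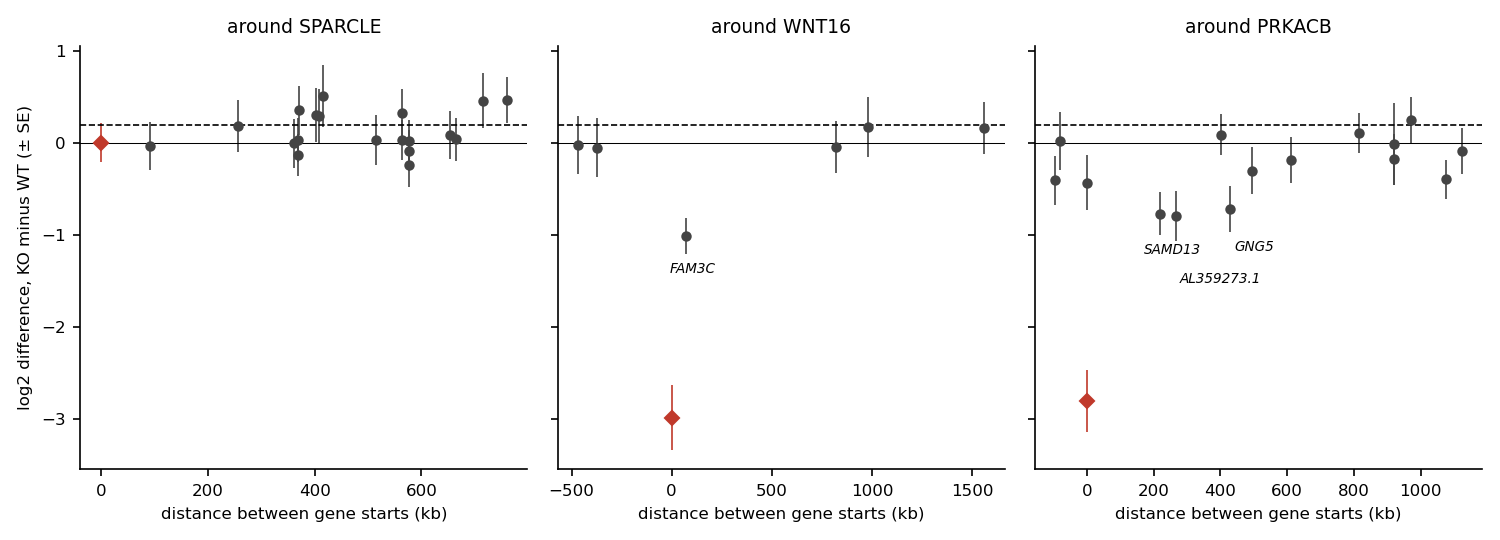
Log2 difference, KO minus WT in regular medium (vertical axis, ± SE), of the tested autosomal genes within 1 Mb of SPARCLE, WNT16 and PRKACB against the distance between gene starts in kb (horizontal axis; positive towards higher coordinates); red diamonds are the central genes and the dashed line is the median of all autosomal genes tested, 0.20. FAM3C at -1.01 is the neighbour of WNT16 that stands away from 0.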

How the data were processed

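The deposited table holds log2 TPM values that the authors made, in 1 column per library. Per the submitters' processing notes, HISAT2 2.0.4, SAMtools 1.7, featureCounts, R 3.3.3 and edgeR 3.12.1 were used with the hg38 build; the annotation and the strand setting of the counting are not given in the sources used here. Per the labels' protocols, total RNA was extracted with Trizol and made into stranded total RNA libraries without selection of mRNA; the share of TPM on 328 small RNA genes was 64.8% to 75.6%, and the level of the other genes moves with it.

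The deposited log2 values were turned back into TPM. With gene lengths of GENCODE v29, which held 16564 of the 16676 IDs, whole reads (within 0.05 reads) were recovered for 15182 genes (91.7%) and for 1466 more with a searched length; 28 genes gave none. Recovered reads per library were 12599134 to 18570480 in regular medium. Intervals of read ratios are exact binomial ones at 95%, and intervals and floors of 3 reads cover counting error only.

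Genes with at least 1 TPM in 2 libraries were tested on log2(TPM + 1) with limma 3.58.1 (R 4.3.3, with a mean-variance trend) across all 12 libraries with 6 group means, which share 1 estimate of the spread (6 residual degrees of freedom). P-values were adjusted by the Benjamini-Hochberg method over 15256 genes, and autosomal genes are reported. Tables were made with Python 3.11.15 and pandas 2.3.3, and the fit was tested on simulated data, where it recovered most changed genes but made more false calls than the threshold allows. The genes named are those called, the 10 uncalled genes in each direction with the smallest p-values among genes whose libraries do not overlap, CDKN1A, MDM2 and PARP1, and examples from the lists with the smallest p-values or known roles. The genes, lists and windows were chosen with earlier results of these data known. Alternatives were another pseudocount (0.1), filter, scaling, model, block or set of libraries.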

Additional observations from a re-analysis of the deposited data

Results flagged for a closer look

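PDE4B met 1 criterion for a closer look: its genotype difference was not the same in the 2 media by the test of the interaction. The difference with doxorubicin, KO minus WT, was below that in regular medium by -3.13 ± 0.29 log2 units (SE, limma adjusted p = 0.0012). PDE4B had 15 and 7 reads in KO libraries with doxorubicin against 3170 and 3399 reads in WT libraries with doxorubicin, and 3 and 5 reads in KO libraries against 156 and 143 reads in WT libraries of regular medium. PDE4B was near 0 in KO libraries of both media and differed between the media in WT libraries, at 23 and 22.1 TPM with doxorubicin and 1.4 and 1.91 TPM in regular medium. With a pseudocount of 0.1 the interaction was -3.54 (adjusted p = 1) and with voom on the recovered reads -3.23 (adjusted p = 1), and over all alternatives its adjusted p ran from 0.000309 to 1. No group here has more than 2 libraries, so none was searched for a library far from the rest.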

How the results depend on the processing

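Against 10 autosomal calls, a pseudocount of 0.1 gave 19, no filter 17, a mean TPM of at least 5 gave 6, median-ratio scaling 30, TPM without small RNA genes 24, a fit of only the 4 libraries 1, and voom on the recovered reads 15, of which 7 were among the 10. Leaving out 1 library in turn gave 1 to 10 calls. The replicate block gave 30 calls (17 higher, 13 lower) and the crossed replicate block, added after seeing the data, 42 (26 higher, 16 lower). The labels do not say that the letters a and b pair samples, and deviations from the group means of same-lettered libraries correlated at -0.389 between KO and WT cells in regular medium. Between KO and OE cells they correlated at 0.50 in regular medium and 0.810 with doxorubicin, and over the other pairs of groups at -0.347 to 0.248. The letters were therefore not used to pair KO with WT libraries, but KO and OE libraries of one letter shared deviations. With doxorubicin KO replicate a correlated at 0.995 with OE replicate a and at 0.967 with KO replicate b across genes. The source of this likeness was not tested. No called gene turned its sign under any alternative in which it was tested. CDKN1A was at -0.17 with median-ratio scaling, -0.015 without small RNA genes, -0.18 with voom, -0.035 without KO replicate a and -0.21 to 0.36 over all libraries left out in turn. PARP1 was at -0.011 with median-ratio scaling and -0.011 with voom, SPARCLE at -0.19 with voom, and, over libraries left out in turn, EPCAM between -0.29 and 0.083 and SIK2 between -0.26 and 0.19. The cause of these shifts was not tested.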
